A study of Mus musculus with 18 samples.

Results

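The mir-322, mir-503 and mir-450 polycistron is a run of 7 miRNA hairpins on the mouse X chromosome that is represented by 6 rows of the count table: mmu-mir-322, mmu-mir-503, mmu-mir-351, mmu-mir-542, mmu-mir-450a and mmu-mir-450b. These 6 of 1006 miRNA rows were chosen by name as neighbours in the genome, with it already known from these counts that mmu-mir-450a was called in opposite directions in the knockouts of Safb plus Safb2 and of Erh. The differences between genotypes are therefore descriptions, and whether a row passed the threshold for a call is stated only to describe it, not as evidence. The contrast between the 2 guide populations of a genotype was not used to choose the rows, and p-values are given for it. The mmu-mir-450a row stands for 2 gene copies. No row name gives an arm of the hairpin, so a row may hold reads of both arms, but how reads were assigned was not given.

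Small RNA was sequenced from Baf3, a mouse pro-B cell line grown with interleukin-3, in 18 libraries of 3 genotypes. All cells carried fluorescent reporters for mutated miR-15a and miR-16 and had received Cas9 with a single guide RNA by stable transduction. Targets of the guides were Rag1 (Rag1_KO, the control), both Safb1 and Safb2 (Safb1 KO, Safb2 KO, called SAFB here) or Erh (Erh KO, called ERH here), with 2 guides for each genotype. A guide population was sequenced in 3 labelled batches, which made 6 populations, 18 libraries and 6 libraries per genotype. The populations were polyclonal. Knockout cells had been collected by sorting on a derepressed miR-15a reporter and were then regrown. How control cells were sorted was not stated in the labels, and the targeted mRNAs, which small RNA libraries do not measure, could not be checked. The libraries of a genotype came from only 2 edited populations, so the spread between them covers batches and 2 guides, not independent cultures of the line.

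In the genome the hairpins are transcribed in one direction, and a primary transcript that holds several hairpins is cut by the Microprocessor, the complex of Drosha and Dgcr8, before Dicer trims each hairpin to a duplex of mature strands. SAFB proteins and ERH bind the Microprocessor and help it to cut weak hairpins that lie beside a strong one. miR-322 (the mouse miR-424) and miR-503 are related to miR-15 and miR-16 and are known to repress cell cycle genes such as cyclins, and they are induced during muscle differentiation. The seed, bases 2 to 8 of a mature miRNA, is the stretch that pairs with target mRNAs.

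In build GRCm38 (GENCODE M21 annotation) the 7 hairpins lay on the minus strand within 6353 bases, from 53047997 to 53054349. The order from the 5′ end was Mir322 at chrX:53054255-53054349, Mir503 at chrX:53053984-53054054, Mir351 at chrX:53053255-53053353, Mir542 at chrX:53049403-53049487, Mir450-2 at chrX:53048299-53048367, Mir450-1 at chrX:53048154-53048244 and Mir450b at chrX:53047997-53048078. The widest gap between neighbours, 3767 bases, separated Mir351 from Mir542, and the other gaps were 54 to 1035 bases. The hairpins therefore fell into an upstream group of mir-322, mir-503 and mir-351 and a downstream group of mir-542, mir-450a and mir-450b. RefSeq places the upstream group within the span of the lncRNA C430049B03Rik (53053112 to 53057190), whereas the GENCODE span of that gene (53055046 to 53057190) ends before the hairpins begin. No other annotated gene overlapped the downstream group in either annotation. The build used to make the counts was not given in the sources used here.

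The mature sequences below are those of RefSeq (GRCm38.p6), shown because they decide which rows share a seed and which could share reads, with the seed in capitals.
mmu-miR-322-5p: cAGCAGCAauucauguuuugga
mmu-miR-16-5p: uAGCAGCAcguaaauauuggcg
mmu-miR-15a-5p: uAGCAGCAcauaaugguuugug
mmu-miR-497a-5p: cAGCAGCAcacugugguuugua
mmu-miR-503-5p: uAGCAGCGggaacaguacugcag
mmu-miR-351-5p: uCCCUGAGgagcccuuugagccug
mmu-miR-125a-5p: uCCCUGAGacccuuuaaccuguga
mmu-miR-542-3p: uGUGACAGauugauaacugaaa
mmu-miR-542-5p: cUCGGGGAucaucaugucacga
mmu-miR-450a-5p: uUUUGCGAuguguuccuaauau
mmu-miR-450b-5p: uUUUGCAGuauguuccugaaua
mmu-miR-450a-1-3p: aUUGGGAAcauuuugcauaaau
mmu-miR-450b-3p: aUUGGGAAcauuuugcaugcau

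The seed of miR-322-5p was that of miR-16-5p, miR-15a-5p and miR-497a-5p. Counted from the 5′ end of miR-16-5p, miR-503-5p differed within the seed by A8G, so these sequences share the seed except for its last base. miR-351-5p carried the whole seed of miR-125a-5p. Of 1679 distinct mature miRNAs in the RefSeq table, 0 others had the seed of miR-542-3p, and 0 others had that of miR-450a-5p or of miR-450b-5p. Those last 2 strands differed from each other at 2 of the 7 seed bases. The 3p strands of Mir450-1 and Mir450b differed at 2 of 22 bases, so reads of those strands could have been split between the mmu-mir-450a and mmu-mir-450b rows in a way the counts do not show.

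Library totals ran from 2699323 to 4470073 miRNA counts, and 4 spike-in RNAs added 0.165% to 0.366%. Libraries were scaled by the trimmed mean of M-values (TMM), and levels are given as CPM, counts relative to the scaled library size. A filter on low counts kept 273 miRNAs. The 5 blood-cell markers were all detected and summed to 145100 to 171300 CPM in control, 149300 to 166300 in SAFB and 119500 to 153200 in ERH. Most of that was mir-142a (145200, 139100 and 123700 CPM), while mir-223 stood at 9611, 17410 and 9214 CPM and mir-150 at 19.3, 4.91 and 9.29. The 2 endothelial markers summed to 4073 to 4592 CPM in control, 3119 to 3736 in SAFB and 2924 to 3448 in ERH, with both knockouts below all controls and nearly all of it from mir-126a. The 2 erythroid markers summed to at most 2.31 CPM in any library. In the muscle list, which bears on miRNAs known from muscle, 3 of 6 markers (mir-133b, mir-206 and mir-208a) had 0 counts in all 18 libraries and the summed level was 0.618 to 6.33 CPM in control, 0.576 to 5.06 in SAFB and 1.76 to 6.40 in ERH. The neuronal list of 3 summed to 1826 to 2229 CPM in control, 2143 to 2815 in SAFB and 2333 to 3057 in ERH. All ERH libraries thus lay above all controls, and within the list mir-9 stood at 9.06, 65.9 and 260 CPM. The 4 lymphoid markers summed to 12190 to 15190 CPM in control, 9806 to 11370 in SAFB and 11450 to 15720 in ERH. All SAFB libraries thus lay below all control and all ERH libraries. Within that list mir-181b stood at 1131, 192.4 and 729.8 CPM, mir-92a at 7436, 4329 and 6297, mir-17 at 2050, 1228 and 1471, and mir-181a at 3114, 4662 and 4119. In the same order of genotypes, the 6 epithelial markers summed to 145.3 to 201.8, at most 224.0 and 147.5 to 182.5 CPM, with all SAFB libraries above all ERH libraries, the 4 connective tissue markers to 24.35 to 39.58, 28.76 to 44.38 and 25.62 to 37.23, and the liver marker mir-122 to 4.68 to 8.32, 6.21 to 15.3 and 7.67 to 34.2. For comparison, among all 273 single miRNAs the groups did not overlap for 36.6% in SAFB and 37.4% in ERH against control. Between ERH and SAFB that share was 20.5%. The part of these markers in the differences below was not tested.

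All 6 rows had counts well above the filter in every library. mmu-mir-322 had 16846 to 31807 counts per library, mmu-mir-503 had 4779 to 8642, mmu-mir-542 had 2246 to 5790, mmu-mir-351 had 868 to 1844 and mmu-mir-450b had 782 to 1266. The row with the fewest was mmu-mir-450a, with medians of 165 counts in control, 147.5 in SAFB and 239.5 in ERH and at most 287 in any library. Counting error alone gives mmu-mir-450a a coefficient of variation of 8.02% in control, 8.17% in SAFB and 6.37% in ERH, against an observed 7.45%, 12.5% and 14.4% over the 6 libraries of each genotype. For mmu-mir-322 counting error was at most 0.678%, against an observed 9.04% to 16.6%, so its spread between libraries was far wider than counting error. These figures treat reads as independent molecules, since collapsing by molecular identifiers was not stated.

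In control cells mmu-mir-322 ranked 24th among all miRNA rows by mean CPM, mmu-mir-503 44th, mmu-mir-542 69th, mmu-mir-351 78th and mmu-mir-450b 86th, and mmu-mir-450a came last of the 6. Between genes these ranks compare reads and not molecules, because ligation and amplification differ between small RNAs. Together the 6 rows took 0.991% ± 0.077 (SD, n = 6) of all miRNA counts in control, 0.928% ± 0.090 in SAFB and 1.13% ± 0.11 in ERH. The ranges, 0.906% to 1.12%, 0.776% to 1.03% and 0.936% to 1.23%, overlapped. Most of that sum was mmu-mir-322, at 65.0% ± 1.4 of the 6 rows in control, 65.0% ± 2.3 in SAFB and 62.5% ± 3.1 in ERH. mmu-mir-542 took 7.64% ± 0.43 in control, 9.93% ± 1.04 in SAFB and 13.2% ± 1.0 in ERH, and on this share the 3 genotypes did not overlap, with 7.06% to 8.17%, 8.99% to 11.3% and 12.03% to 14.9%.

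**Figure D1:**
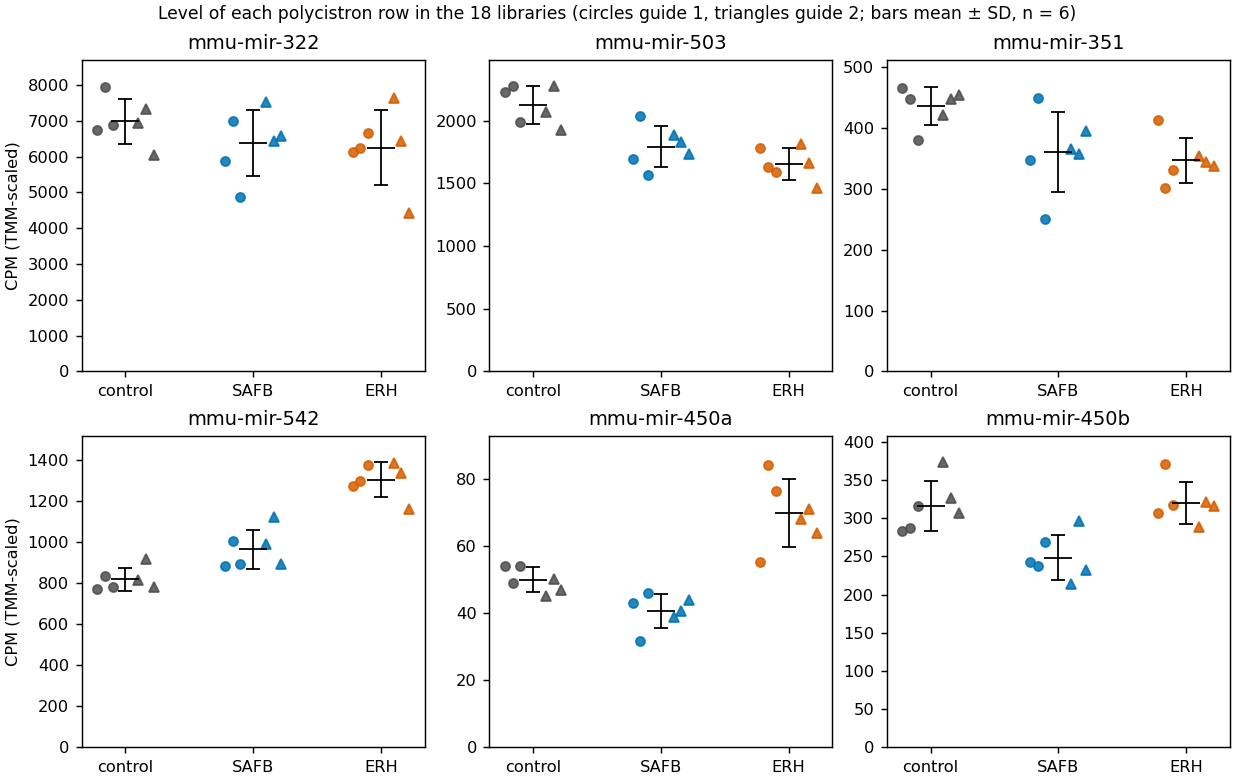
Level of each row in CPM (linear axis from 0) in the 18 libraries, with circles for guide 1, triangles for guide 2 and bars for the mean and SD of 6 libraries. All 6 ERH libraries lie above all 6 control libraries for mmu-mir-542 and mmu-mir-450a, while the genotypes overlap for mmu-mir-322.

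Of the members of the miR-15 and miR-16 seed group at the 5′ end of the polycistron, mmu-mir-322 was not called in either knockout and mmu-mir-503 was called lower in both. mmu-mir-322 stood at 6056, 6915 and 7950 CPM (lowest, median and highest) in control, 4860, 6510 and 7529 in SAFB, and 4433, 6330 and 7623 in ERH. The genotypes overlapped over most of their range. Relative to control, mmu-mir-322 had a log2 fold change of -0.13 ± 0.11 (SE) with SAFB lost and of -0.16 ± 0.11 with ERH lost, neither of which was called, and the ERH value turned to 0.14 with scaling by total counts and to 0.15 with scaling by spike-ins. The SAFB value was -0.39 ± 0.22 with spike-ins, -0.11 to -0.01 when a library was left out, 0.15 without the population of SAFB guide 1 and 0.01 with 1 of 18 TMM reference libraries. Within batches 1, 2 and 3 it was -0.04, -0.19 and -0.19 in SAFB and -0.00017, -0.27 and -0.25 in ERH. When a library was left out, the ERH value was -0.16 to -0.03 and was not called in any fit.

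mmu-mir-503, the other member of that group, stood at 1930, 2149 and 2278 CPM in control, 1565, 1783 and 2041 in SAFB, and 1461, 1650 and 1813 in ERH. All 6 ERH libraries lay below all 6 control libraries, and 5 of 6 SAFB libraries did. This gave a log2 fold change of -0.25 ± 0.07 in SAFB and of -0.36 ± 0.07 in ERH, that is 0.843 and 0.779 of the control level. The SAFB value was not called with spike-ins (-0.52 ± 0.23), without any 1 of the 4 control and SAFB populations (-0.22 to -0.05), or in 7 of the 18 fits that left out a library (-0.18 to -0.16): control guide 1 batch 1 or 2, control guide 2 batch 2, SAFB guide 1 batch 1 or 3, SAFB guide 2 batch 2 or ERH guide 2 batch 2. The SAFB call was also lost with ERH guide 1 batch 2 or ERH guide 2 batch 2 as the TMM reference. In ERH the log2 fold change was near 0 with scaling by total counts (-0.06 ± 0.07) and by spike-ins (-0.07 ± 0.23). Within batches it was -0.26, -0.24 and -0.25 in SAFB and -0.26, -0.46 and -0.36 in ERH.

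mmu-mir-351, which carries the seed of the miR-125 family, stood at 380, 448 and 466 CPM in control, 250, 362 and 450 in SAFB, and 301, 342 and 413 in ERH. The ranges overlapped in both comparisons, with 4 of 6 SAFB and 5 of 6 ERH libraries below the lowest control. Its log2 difference from control came to -0.27 ± 0.11 in SAFB and to -0.33 ± 0.11 in ERH, and the latter was -0.03 ± 0.11 with scaling by total counts and -0.06 ± 0.24 with spike-ins. The SAFB value was -0.56 ± 0.24 and not called with spike-ins, and it was called in 16 of 50 alternative fits. Of the 18 fits that left out a library (-0.27 to -0.13), only the one without SAFB guide 1 batch 2 kept the call, and without the population of SAFB guide 1 the value was -0.05. The ERH call was lost in 18 of 50 fits, among them 4 that left out a population (-0.30 to -0.23) and 7 that left out a library (-0.28 to -0.27): control guide 1 batch 1 or 2, control guide 2 batch 3, ERH guide 1 batch 2 or 3 and ERH guide 2 batch 1 or 3. Within batches it was -0.31, -0.16 and -0.40 in SAFB and -0.21, -0.47 and -0.31 in ERH.

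Across the wide gap, mmu-mir-542 was the row that stood furthest above control. It had 772, 800 and 919 CPM in control, 881, 943 and 1122 in SAFB, and 1161, 1318 and 1388 in ERH. Every ERH library exceeded every control and every SAFB library, whereas 3 of 6 SAFB libraries exceeded all controls. The log2 fold change was 0.67 ± 0.07 in ERH, or 59.6% above control, and 0.24 ± 0.07 in SAFB, or 1.18 times control, but the SAFB value turned to -0.047 ± 0.231 with scaling by spike-ins and, at 0.24, was not called with counts summed per population. Within batches 1, 2 and 3 it was 0.74, 0.59 and 0.69 in ERH and 0.23, 0.28 and 0.19 in SAFB. When a population was left out, the SAFB value was 0.24 to 0.47 and was called in all 6 fits. ERH stood above SAFB by 0.44 ± 0.07 with TMM, by 0.70 ± 0.07 with total counts and by 1.00 ± 0.23 with spike-ins.

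mmu-mir-450a went in opposite directions in the knockouts, which is why it was singled out. Its control libraries had 54.0, 49.0 and 54.1 CPM with guide 1 and 44.97, 49.9 and 46.8 with guide 2 (batches 1, 2 and 3). The SAFB libraries had 43.0, 31.5 and 45.9 CPM with guide 1 and 38.9, 40.6 and 43.7 with guide 2. The ERH libraries had 55.1, 84.1 and 76.3 CPM with guide 1 and 68.1, 71.1 and 63.9 with guide 2. Every ERH library lay above every control, the closest by about 1 CPM, and 5 of 6 SAFB libraries lay below every control.

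The log2 fold change of mmu-mir-450a was 0.48 ± 0.12 in ERH, or 39.9% above control, and -0.30 ± 0.12 in SAFB, or 0.815 of control. Within batches it was 0.31, 0.64 and 0.47 in ERH and -0.27, -0.47 and -0.17 in SAFB. The ERH value was 0.79 ± 0.12 with total counts and 0.80 ± 0.26 with spike-ins, and the SAFB value was -0.52 ± 0.26 with spike-ins. These are the values that singled the row out, and they lend it no support. The SAFB call was lost in 37 of 50 alternative fits, among them all 18 that left out a library (-0.28 to -0.15), and it was -0.10 without the population of SAFB guide 1. With the SAFB libraries set directly against the ERH libraries, mmu-mir-450a was 0.78 ± 0.12 higher in ERH with no overlap, and 0.58, 1.11 and 0.64 higher within batches. That difference was 1.04 ± 0.12 with total counts and 1.32 ± 0.26 with spike-ins.

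mmu-mir-450b, the last hairpin, stood at 283.7, 311.8 and 373.8 CPM in control, 214.2, 240 and 296 in SAFB, and 288, 317 and 371 in ERH. Control and ERH libraries covered nearly the same range, and 5 of 6 SAFB libraries lay below the lowest control. The log2 fold change was -0.35 ± 0.09 in SAFB, with -0.51, -0.21 and -0.32 within batches, and 0.02 ± 0.09 in ERH, with -0.13, 0.17 and 0.02 within batches. The SAFB value was -0.63 ± 0.24 with spike-ins, and it was not called without the population of control guide 2 (-0.20), SAFB guide 1 (-0.18) or SAFB guide 2 (-0.22). The SAFB call was also lost with ERH guide 2 batch 2 as the TMM reference. The ERH value was not called, but it was 0.33 ± 0.10 and called with scaling by total counts, and 0.28 ± 0.24 and not called with spike-ins. ERH stood above SAFB by 0.37 ± 0.09 with TMM, by 0.63 ± 0.10 with total counts and by 0.91 ± 0.24 with spike-ins. When a population was left out, that difference was 0.31 to 0.39, and it was not called without SAFB guide 1.

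**Figure D2:**
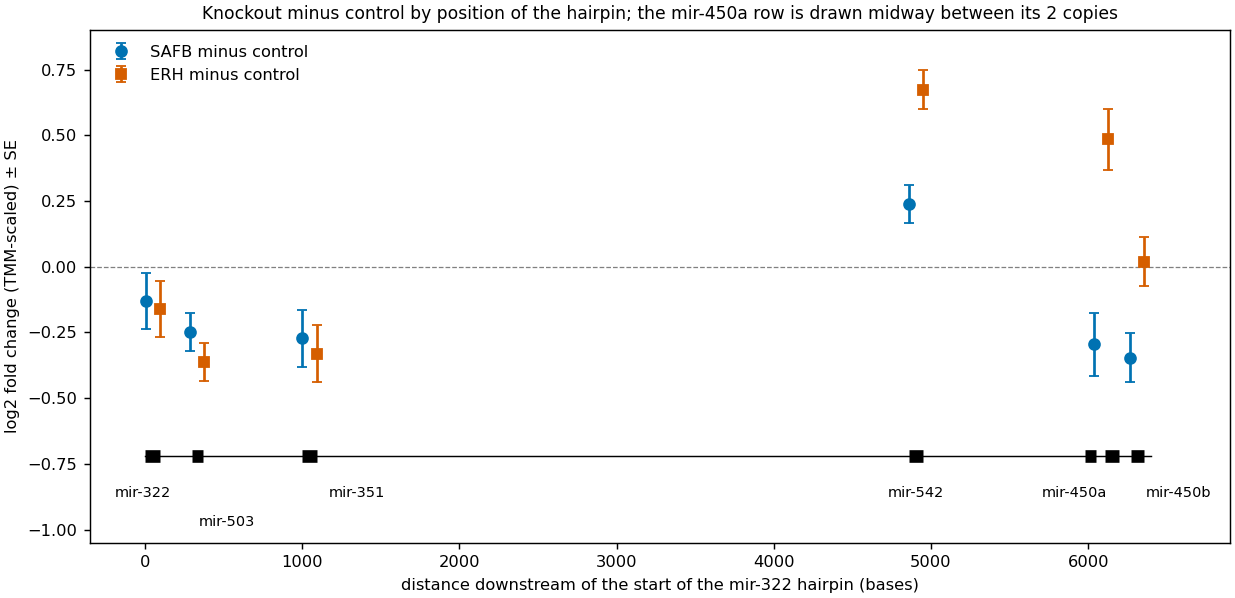
Log2 fold change with SE (vertical axis) of each row in SAFB and ERH against the distance of its hairpin from the start of the mir-322 hairpin in bases, with black boxes for the 7 hairpins. The 3 upstream rows lie below 0 in both knockouts, while mmu-mir-542 lies above 0 in both and mmu-mir-450a lies at -0.30 in SAFB and 0.48 in ERH.

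Of the 6 rows tested, 5 were called in SAFB, at an adjusted p under 0.05 over all tested miRNAs, where 56.0% of all 273 miRNAs were called. One row, mmu-mir-542, was called higher, against 30.8% of all miRNAs, and 4 rows were called lower, against 25.3%. In 0 of 6 rows did the SAFB and control libraries not overlap, against 36.6% of all miRNAs. In ERH 4 rows were called, against 53.8% of all miRNAs: mmu-mir-542 and mmu-mir-450a higher (26.4% of all) and mmu-mir-503 and mmu-mir-351 lower (27.5% of all). The groups did not overlap for mmu-mir-503, mmu-mir-542 and mmu-mir-450a in ERH, 3 of 6 rows against 37.4% of all. Between ERH and SAFB, 3 rows were called (39.6% of all miRNAs), all higher in ERH (23.8% of all) and none lower (15.8% of all), and mmu-mir-542 and mmu-mir-450a did not overlap (20.5% of all). The split by direction depended on the scaling. For ERH against control, 72 miRNAs were called higher and 75 lower with TMM, 108 and 33 with total counts, and 72 and 19 with spike-ins, and among the 6 rows 3 were called higher and 0 lower with total counts and 2 and 0 with spike-ins. For ERH against SAFB, 65 miRNAs were called higher and 43 lower with TMM, 115 and 8 with total counts, and 111 and 1 with spike-ins, and of the 6 rows 4 were called higher with either of the latter. For SAFB against control, 84 were called higher and 69 lower with TMM and 44 and 58 with spike-ins, where 0 rows were called higher and 1 lower. Both knockouts were set against the same controls. Nothing is read from these counts about the rows, which were chosen with those contrasts known.

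The median log2 fold change of the 6 rows was -0.26 in SAFB, beside 0.01 over all 273 miRNAs, and -0.07 in ERH, beside -0.06 over all. The ERH rows spread on both sides of that median, from -0.36 for mmu-mir-503 to 0.67 for mmu-mir-542. The scaling moved the median of all miRNAs to 0.24 in ERH with total counts and to 0.23 with spike-ins, and to -0.23 in SAFB with spike-ins. Relative to the median of all miRNAs under the same scaling, mmu-mir-542 was 0.73 to 0.74 higher in ERH and 0.18 to 0.23 higher in SAFB over the 4 scalings. On the same footing mmu-mir-450a was 0.55 to 0.57 higher in ERH and stood at -0.30 to -0.29 in SAFB, and mmu-mir-503 stood at -0.30 to -0.29 in ERH. A scaling factor moves all rows of a library together, so the closeness of these relative values was fixed in advance and shows nothing about the rows. Signs against control did depend on the scaling. Over these 4 scalings those of mmu-mir-322 in ERH and of mmu-mir-542 in SAFB turned. Over the 18 possible TMM reference libraries those of mmu-mir-322 in SAFB and mmu-mir-450b in ERH (-0.05 to 0.14) turned.

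**Figure D3:**
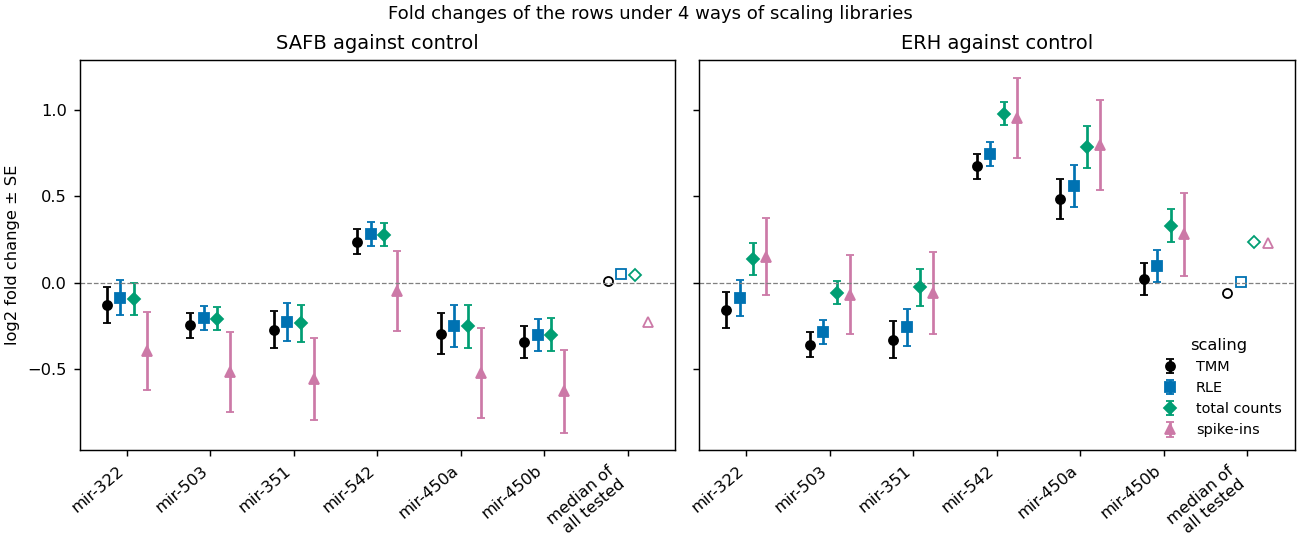
Log2 fold change with SE (filled symbols) of the 6 rows in SAFB (left) and ERH (right) under 4 ways of scaling, with open symbols for the median of all 273 miRNAs. The symbols of a scaling shift together with that median: in ERH it moves from -0.06 with TMM to 0.24 with total counts, and in SAFB to -0.23 with spike-ins.

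Ratios of counts within a library need no scaling. They come from the same counts as the fold changes above, so their likeness to those is no separate evidence. Control libraries had a log2 ratio of mmu-mir-542 to mmu-mir-322 of -3.09 ± 0.11 (SD, n = 6), compared with -2.72 ± 0.19 in SAFB and -2.24 ± 0.17 in ERH. All libraries of both knockouts lay above all controls, by 0.37 on average in SAFB (0.27, 0.46 and 0.38 within batches) and by 0.85 in ERH (0.74, 0.86 and 0.94 within batches). One ERH library, guide 2 in batch 3, was the highest of its genotype for each of the 5 ratios to mmu-mir-322 and had the lowest mmu-mir-322 level of the 18 libraries, 4433 CPM. Without it the mean difference of mmu-mir-542 in ERH was 0.78. Against mmu-mir-503 the spread was smaller: mmu-mir-542 to mmu-mir-503 gave a log2 ratio of -1.38 ± 0.09 for control, of -0.89 ± 0.12 for SAFB and of -0.34 ± 0.09 for ERH, with no overlap between any 2 genotypes.

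Control libraries had a log2 ratio of mmu-mir-450a to mmu-mir-322 of -7.13 ± 0.16, compared with -7.29 ± 0.38 in SAFB and -6.48 ± 0.29 in ERH. All ERH libraries lay above all controls, by 0.65 on average and by 0.31, 0.91 and 0.72 within batches. The SAFB libraries, from -7.79 to -6.73, spanned the whole control range of -7.34 to -6.96, and within batches their difference was -0.23, -0.28 and 0.02. Relative to mmu-mir-322, mmu-mir-450a in SAFB thus did not differ from control beyond the spread between libraries. Against the neighbouring mmu-mir-542, in contrast, mmu-mir-450a was 0.54 lower in SAFB with no overlap (-4.58 ± 0.29 against -4.04 ± 0.16 in control).

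mmu-mir-450b and mmu-mir-450a had nearly the same mean ratio in SAFB as in control, 2.62 ± 0.22 against 2.66 ± 0.23 on the log2 scale, and stood at 2.21 ± 0.16 in ERH. Within batches the SAFB difference went both ways, at -0.24, 0.26 and -0.15. The ERH difference, -0.45, was -0.44, -0.47 and -0.45 within batches, although single libraries of ERH and control overlapped. Ratios of mmu-mir-503 and mmu-mir-351 to mmu-mir-322 overlapped between all genotypes, with mean differences from control between -0.19 and -0.11.

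Over the 15 possible pairs of rows, the log2 ratio did not overlap between SAFB and control in 5 pairs, each of which contained mmu-mir-542. The same was true of 57.1% of all 11628 pairs among the 153 miRNAs that averaged 100 counts or more. In ERH 6 pairs did not overlap with control, against 54.2% of all pairs, and each contained mmu-mir-542 or mmu-mir-450a. Between ERH and SAFB 2 pairs did not overlap, against 30.0% of all pairs, namely those of mmu-mir-542 and mmu-mir-450a with mmu-mir-503. Grouped by position, a choice made after the values were seen, the log2 ratio of the summed downstream to the summed upstream rows was -3.01 ± 0.11 in control. It was -2.76 ± 0.20 in SAFB and -2.27 ± 0.16 in ERH, and all ERH libraries lay above all controls. No share over other miRNAs was computed for such sums. The sums mostly restate mmu-mir-542 to mmu-mir-322. Mean counts were 3630 for mmu-mir-542, 186 for mmu-mir-450a and 1022 for mmu-mir-450b. In SAFB the mean ratios of mmu-mir-450a and mmu-mir-450b to mmu-mir-322 differed from control by -0.16 and -0.21, the other way, with overlap.

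**Figure D4:**
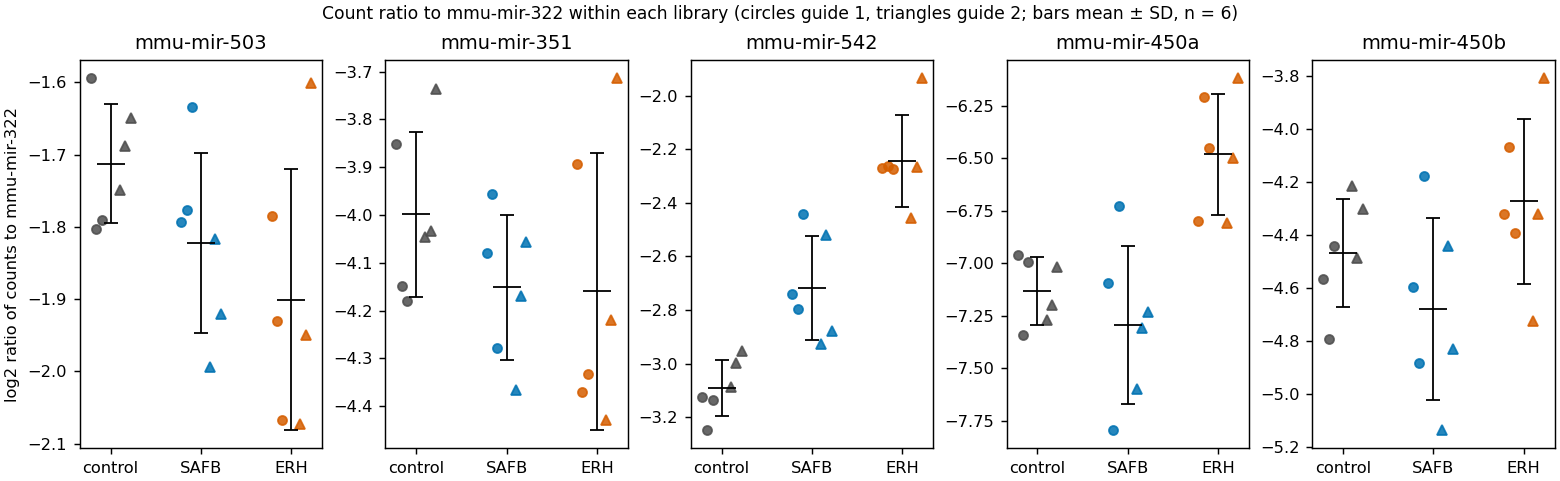
Log2 ratio of each row's counts to those of mmu-mir-322 in the same library, by genotype, with circles for guide 1, triangles for guide 2 and bars for the mean and SD of 6 libraries. For mmu-mir-542 all SAFB and ERH libraries lie above all controls, and for mmu-mir-450a all ERH libraries do, while the other 3 rows overlap between genotypes.

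The contrast between the 2 guides of a genotype asks whether independently edited populations gave the same levels. No row was called in control, where 0% of all miRNAs were called, in SAFB, also 0%, or in ERH, where 0.366% were called (edgeR's quasi-likelihood test with Benjamini-Hochberg adjustment over 273 miRNAs). This does not show that the guides were equal. At an unadjusted p under 0.05, 0 of 6 rows passed in each genotype, beside 7, 10 and 18 of all miRNAs. The widest differences of guide 2 from guide 1 on the log2 scale were 0.18 ± 0.13 (SE) for mmu-mir-450b in control (adjusted p = 0.969, edgeR), 0.21 ± 0.15 for mmu-mir-322 in SAFB (adjusted p = 0.872, edgeR) and -0.10 ± 0.13 for mmu-mir-450b in ERH (adjusted p = 0.991, edgeR). When a library was left out, the difference of mmu-mir-450b was 0.14 to 0.26 in control and -0.20 to -0.03 in ERH. That of mmu-mir-322 in SAFB was 0.08 to 0.32, and no such fit called these rows. With scaling by spike-ins, 4 rows were called in control, where 35.2% of all miRNAs were called, 4 in ERH, where 40.3% were, and 0 in SAFB, where 0% were. Under that scaling the median of all miRNAs differed between guides by 0.63 in control and 0.63 in ERH, and the value of mmu-mir-450b in ERH turned to 0.50. For mmu-mir-542, the 4 possible comparisons of an ERH with a control population gave 0.63 to 0.72, and those of a SAFB with a control population gave 0.14 to 0.33. For mmu-mir-450a they gave 0.37 to 0.58 in ERH and -0.40 to -0.20 in SAFB.

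The miR-15 and miR-16 seed group outside the polycistron included rows with far wider differences from control. Of the 7 on the list outside the polycistron, 6 were tested. SAFB loss gave 1 higher and 4 lower calls, ERH loss 0 higher and 5 lower calls. Over all 273 miRNAs the shares called higher and lower were 30.8% and 25.3% with SAFB lost and 26.4% and 27.5% with ERH lost. The list's median log2 fold changes were -0.47 and -0.54, beside 0.01 and -0.06 over all miRNAs. mir-15b, a paralog of mir-15a, stood at 4961 ± 405 CPM in control, 612 ± 73 in SAFB and 516 ± 69 in ERH (SD, n = 6). mir-15a, whose reporter was used in the sort and whose direction is therefore not independent, stood at 1067 ± 77, 87.2 ± 14.1 and 177 ± 39 CPM. mir-497a, from another polycistron, stood at 1765 ± 175, 1448 ± 138 and 1351 ± 205.7 CPM, with log2 fold changes of -0.28 ± 0.10 and -0.39 ± 0.10 that were close to those of mmu-mir-503. mir-497b, on the list by its name, has another seed and did not exceed 17 counts in any library. mir-16 alone made up 93.6% ± 0.6 of the counts of the 9 listed rows in control, and mmu-mir-322 made up 2.44% ± 0.26 in control, 1.97% ± 0.22 in SAFB and 2.67% ± 0.37 in ERH.

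Of the miRNAs with the seed of miR-351-5p, mir-125a and mir-125b were called higher in both knockouts. Over all miRNAs 30.8% were called higher with SAFB lost and 26.4% with ERH lost. mmu-mir-351 was instead called lower in both, with calls that many alternative fits lost. mir-125a stood at 10.1 ± 4.0 CPM in control, 124.5 ± 42.1 in SAFB and 294 ± 39 in ERH, and mir-125b at 8.90 ± 2.22, 78.5 ± 21.6 and 193 ± 27. mmu-mir-351 stood at 436 ± 31, 361 ± 66 and 347 ± 37 CPM. Of 12 listed rows from other miRNA clusters of the X chromosome, 9 were tested. Calls for SAFB were 0 higher and 6 lower, and those for ERH were 0 higher and 7 lower, where 25.3% and 27.5% of all miRNAs were called lower. Their medians were -0.78 and -0.74 on the log2 scale, beside 0.01 and -0.06 over all miRNAs. Furthest below control were mir-421 (-2.94) and mir-98 (-2.39) in SAFB, and mir-98 (-2.81) and mir-374b (-1.61) in ERH. In ERH mir-421 stood at -1.51. By contrast, mir-222 (-0.06 and -0.01) lay near control. The rows mir-19b, mir-92a and let-7f also hold a copy from another chromosome, and all were called lower in both knockouts. Their calls and their part in these medians therefore cannot be credited to the X chromosome. In control mir-19b stood at 21650 CPM and mir-92a at 7436. Listed with them, mir-106a, mir-18b, mir-20b and mir-363 stood at 0.95, 0.11, 4.40 and 0 CPM in control.

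By correlation of log2 CPM over the 18 libraries, the rows most like mmu-mir-322 among 147 candidates outside the polycistron that averaged 100 counts or more were mir-497a (Pearson r = 0.86), mir-301a (0.83) and mir-29a (0.79). Those most like mmu-mir-450a were mir-339 (0.68), mir-703 (0.66) and mir-34b (0.65). In control, SAFB and ERH, mir-339 averaged 243, 183 and 278 CPM, mir-703 averaged 18.5, 23.2 and 73.8, and mir-34b averaged 177, 168 and 248. These values describe likeness over libraries that share genotypes, batches and scaling.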

How the data were processed

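The authors deposited one table of read counts, whole numbers that are not normalized, for 1006 miRNA rows and 4 spike-ins in 18 libraries. Per the labels' protocols, total RNA was mixed with spike-ins and libraries were made with the QIAseq miRNA kit. SAMtools is named in the submitters' processing notes, with no version. How reads were aligned and counted, on which build and annotation, how those matching several rows were assigned, and whether molecular identifiers were collapsed were not given in the sources used here.

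Spike-ins were kept out of library sizes. Counts were fitted in edgeR 4.0.16 (limma 3.58.1, R 4.3.3): filterByExpr (minimum count 10), TMM scaling, glmQLFit with one mean per genotype over all 18 libraries (one per population for guides), Benjamini-Hochberg adjustment over 273 miRNAs and calls at an adjusted p under 0.05. A standard error is the log2 fold change divided by the square root of F. CPM used the TMM-scaled library sizes. Within a library, members were compared by log2 count ratios. The fit was tested on simulated data.

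The 6 members and the lists (seed groups, other X-chromosome clusters, cell type markers) were chosen with earlier results of these data known. Other miRNAs named are on those lists or are the 3 most correlated with mmu-mir-322 or mmu-mir-450a. Positions came from GENCODE M21 and sequences from RefSeq, both GRCm38, and were matched by symbol. All 6 rows matched at least 1 mature strand.

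Batch numbers in the labels pair the libraries of different populations. Over 153 miRNAs, a library's deviations from its population mean had an average correlation of 0.0929 with those of the same batch (45 pairs, -0.329 to 0.65). With those of another batch it was -0.0462 (90 pairs). Deviations cancel within a population, so the second average largely follows from the first and is no separate evidence of pairing. No library was a duplicate: within a population, pairs gave a chi-square over counts of 25.7 to 174 per degree of freedom. Alternatives were other scalings, filters, DESeq2 1.42.0, a batch block, sums per population, each library or population left out and, chosen after seeing the data, each library as the TMM reference.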

Additional observations from a re-analysis of the deposited data

Results flagged for a closer look

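In the ERH libraries, the log2 ratio of mmu-mir-542 to mmu-mir-322 had 1 library far from the others: guide 2 in batch 3 stood at -1.93, and the other 5 lay between -2.46 and -2.26. Its gap to the nearest of the others was 0.628 of the whole range. Of 33 groups of 6 libraries examined in this way 1 stood out, and chance gives about 1 in 20. In that library mmu-mir-322 had 17072 counts and 4433 CPM, below the 6134 to 7623 CPM of the other ERH libraries, and mmu-mir-503 and mmu-mir-542 were also the lowest of the 6, at 1461 and 1161 CPM. mmu-mir-351, mmu-mir-450a and mmu-mir-450b lay within the range of the others. Without it the mean ratio in ERH was -2.31 ± 0.09 (SD, n = 5), which is 0.78 above control.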

How the results depend on the processing

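The count of members called in SAFB, 5, was the value that depended most on processing. It was 3 with RLE scaling, total counts, no filter and DESeq2, 1 with spike-ins, and 2 with counts summed per population. Leaving out any 1 of the 18 libraries, controls and ERH included, gave 2 to 4, and each such fit also changed the TMM reference library and the rows kept. The TMM reference of the main fit, picked by edgeR, was ERH guide 2 batch 3, the library flagged above. The 5 calls and the TMM fold changes thus rest on that library as reference. With each library as the TMM reference, a choice made after seeing the data, it was 1 to 5, among them 3 with control guide 2 batch 3, ERH guide 1 batches 1 and 3 and ERH guide 2 batch 1, 2 with ERH guide 1 batch 2 and 1 with ERH guide 2 batch 2. Without the population of control guide 1 it was 2, of control guide 2, SAFB guide 1 or SAFB guide 2 it was 1, and of ERH guide 2 it was 3. The count in ERH, 4, was 2 with spike-ins, and without single libraries it was within 1.5 times the main count. Spike-ins called 4 members between guides in control (35.2% of all miRNAs) and 4 in ERH (40.3%), where mmu-mir-450b turned to 0.50, and turned mmu-mir-542 in SAFB to -0.047. With a replicate block for batch, 5, 4 and 3 members were called in SAFB, ERH and between ERH and SAFB, and no call changed. Of 50 alternatives, calls in SAFB and ERH numbered 48 and 50 for mmu-mir-542, 13 and 50 for mmu-mir-450a, 36 and 48 for mmu-mir-503, 16 and 32 for mmu-mir-351, 46 and 1 for mmu-mir-450b, and 0 and 0 for mmu-mir-322. Unless stated, the cause of a change was not tested. Depth limits mmu-mir-450a most, at no more than 287 counts per library.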
